A study of Rattus norvegicus with 10 samples.

Results

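Interferon response and antigen presentation genes were followed in rat kidney across 5 diet groups, with most weight on fish oil against corn oil. The set is a list of 41 gene symbols joined by function: 2 chemokines, the transcription factors of the pathway, sensors of viral RNA, antiviral effector proteins, interferon-induced GTPases, negative regulators, and the genes that load peptides on class I and class II molecules. A gene was taken into the set by its symbol in the array annotation, and the brightest probe set would have stood for a gene with several. Of the 41 symbols 37 had a probe set, each exactly 1, out of 14506 genes named on the array. Ddx58, Parp14, Xaf1 and Nlrc5 had no probe set under those symbols and are not described. The rule names genes by function and uses no measured value, but the list was drawn up with earlier results of these data known. No filter on low signal was applied, and all 37 were tested.

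Cells answer infection and some kinds of tissue injury with interferons, which act through receptors, Janus kinases and STAT proteins. Type I interferons mainly act through the interferon-stimulated response element (ISRE) of antiviral genes such as Mx1, Isg15 and Oas1a. Interferon gamma, made by T and NK cells, mainly acts through the gamma-activated site (GAS) and switches on Irf1, chemokines of the Cxcl9 to Cxcl11 group, the inducible GTPases, and the immunoproteasome and peptide transporter of class I presentation. Class II presentation, of which Cd74 (the invariant chain) and the activator Ciita are part, belongs to macrophages, dendritic cells and B cells, and interferon gamma can induce it in other cells. In kidney, tubule cells as well as resident and infiltrating leukocytes can express genes of both arms.

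Male weanling Wistar rats were fed for 6 days on diets with or without choline, the nutrient from which phosphatidylcholine is made, and with either vegetable fat or menhaden (fish) oil. The labels call the vegetable fat corn oil, while the protocol names corn and hydrogenated oils. Total kidney RNA from pools of 3 animals was hybridised, 1 pool per array and 2 arrays per group, and the protocol names 4 diets. The 5 groups are choline with corn oil, choline deficiency with corn oil, choline deficiency with corn oil labelled necrotic, choline with fish oil, and choline deficiency with fish oil. All animals shared strain, sex, age class and feeding time, and neither the means by which kidneys were called necrotic nor the sorting into pools is stated. The deficient and necrotic corn oil pools share a diet label apart from the word necrotic, so they may have been split by outcome. No fish oil pool carries that word. Oil comparisons without the necrotic pools may thus set corn oil animals selected by outcome against fish oil animals that were not. Below, "choline-fed" means choline-supplemented, "deficient corn oil" means the pools without the word necrotic, and the necrotic pools are named as such.

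Each level is a log2 intensity, so a difference of 1 is a factor of 2 in signal, and levels of different genes are not comparable. The array medians lay between 7.28 and 7.43. Kidney identity was checked on 6 proximal tubule markers, whose mean level was between 12.62 and 13.11 on the 8 arrays not labelled necrotic, and 10.75 and 10.60 on the necrotic arrays. A gene is said to rise or fall where limma's moderated test, fitted on all 10 arrays and 29214 probe sets, gave an adjusted p (Benjamini-Hochberg) under 0.05. The ± value beside a difference is its moderated standard error (SE), from n = 2 arrays per group. Because RNA came from whole kidney, fewer cells of a type and less RNA per cell cannot be told apart. The p-values measure the spread between pools of animals.

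The promoters of the members were searched for the type I and the gamma response elements. These elements did not split the set cleanly, since 6 members held both and 6 neither. Those with neither were Stat2, Trim25, Mx1, Oasl, Psmb9 and Cd74. RefSeq windows (assembly GRCr8) reaching 250 bases before and 50 after the gene start were found for 31 of the 37 members; Isg15, Mx2, Usp18, Ciita, Ifit2 and Dhx58 had none. The ISRE core was searched as GAAA, any 2 bases and GAAA again, and the GAS as TTCNNNGAA, on both strands, counting each motif separately where they overlapped. The ISRE core was in 19 of the 31 windows (61.3%), against 3.77% of all 27457 windows of that length, and the GAS was in 12 (38.7%), against 8.68%. A match is a run of letters and not a shown binding site. The 5 stretches printed here belong to genes on which the results turn, from 250 bases before the start to 20 bases after it, on the strand of the gene, with the matches in capitals. Irf1 and Ifi47 held only GAS matches, Psmb10 and Tap1 only ISRE cores, and Psmb8 both.
Irf1, chr10:38417685-38417954, plus strand: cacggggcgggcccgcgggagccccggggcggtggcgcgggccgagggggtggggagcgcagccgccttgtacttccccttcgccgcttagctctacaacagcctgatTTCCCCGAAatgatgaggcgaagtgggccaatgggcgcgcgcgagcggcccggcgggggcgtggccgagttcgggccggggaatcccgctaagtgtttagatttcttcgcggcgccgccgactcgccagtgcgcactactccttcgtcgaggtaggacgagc
Ifi47, chr10:33798494-33798763, plus strand: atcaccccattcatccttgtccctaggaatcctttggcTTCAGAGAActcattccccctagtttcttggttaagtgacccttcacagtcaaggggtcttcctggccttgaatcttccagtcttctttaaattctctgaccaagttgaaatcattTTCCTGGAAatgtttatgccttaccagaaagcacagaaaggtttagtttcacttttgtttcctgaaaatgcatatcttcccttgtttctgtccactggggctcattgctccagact
Psmb8, chr20:4657012-4657281, minus strand: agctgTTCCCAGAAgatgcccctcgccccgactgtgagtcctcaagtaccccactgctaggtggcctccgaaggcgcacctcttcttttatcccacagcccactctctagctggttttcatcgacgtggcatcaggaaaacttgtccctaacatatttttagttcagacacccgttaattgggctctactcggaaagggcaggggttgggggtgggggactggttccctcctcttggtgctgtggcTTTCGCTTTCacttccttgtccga
Psmb10, chr19:50743273-50743542, minus strand: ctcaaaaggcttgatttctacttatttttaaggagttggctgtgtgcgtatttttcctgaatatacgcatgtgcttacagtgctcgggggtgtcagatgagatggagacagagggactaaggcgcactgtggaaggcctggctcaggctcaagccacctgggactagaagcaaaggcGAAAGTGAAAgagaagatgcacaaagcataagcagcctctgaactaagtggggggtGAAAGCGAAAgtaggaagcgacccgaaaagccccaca
Tap1, chr20:4668524-4668793, minus strand: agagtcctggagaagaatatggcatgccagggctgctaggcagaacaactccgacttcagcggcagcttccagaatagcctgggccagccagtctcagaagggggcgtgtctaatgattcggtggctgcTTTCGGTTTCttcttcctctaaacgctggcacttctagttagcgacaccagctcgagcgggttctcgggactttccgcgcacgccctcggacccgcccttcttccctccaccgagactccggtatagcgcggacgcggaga
Counting from the start, the GAS of Irf1 begins at position -142. Psmb10 holds 2 ISRE cores, the first at position -73, and the core of Psmb8 begins at position -4 and runs across the start. Tap1 lies head to head with Psmb9, their starts 457 bases apart on chromosome 20, with Tap2 and Psmb8 within 16.7 kb of the Psmb9 start, so the 4 genes lie together. Psmb9 itself had neither motif in its own window.

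Mean levels of nearly the whole set were lower in fish oil kidneys. With choline-deficient pools not labelled necrotic, all 37 members were lower in mean with fish oil than with corn oil (median log2 difference -0.53, against 0.0037 over the 14506 named genes), and 6 fell: Cxcl11, Irf1, Ifi47, Psmb10, Psmb8 and Tap1. Among all probe sets 1.74% passed in that comparison, 1.39% falling and 0.346% rising. With choline, 36 of 37 members were lower in mean (median -0.32), Socs1 being the exception, yet 0 passed in limma's test; 0.0993% of all probe sets fell and 0.0856% rose. At an unadjusted p under 0.05 there were 6 of the 37 members, beside 12.4% of all probe sets, a share near the background. Averaged over both choline supplies, 7 members fell (Cxcl11, Irf1, Ifi47, Psmb10, Psmb8, Cd74 and Dhx58) and 0 rose, against 2.25% of probe sets passing and 1.69% falling, with a median of -0.44 and 27 members at an unadjusted p under 0.05, beside 14.3% of probe sets. Against the necrotic pools, the deficient fish oil kidneys had 12 members that fell and 1, Mx2, that was higher, where 19.7% of probe sets passed, 10.5% falling and 9.25% rising. All 4 fish oil arrays lay below all 4 non-necrotic corn oil arrays for 13 of 37 members, against 7.05% of the named genes and 4.95% of probe sets, and 0 members lay above, against 3.96% and 3.6%.

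**Figure D1:**
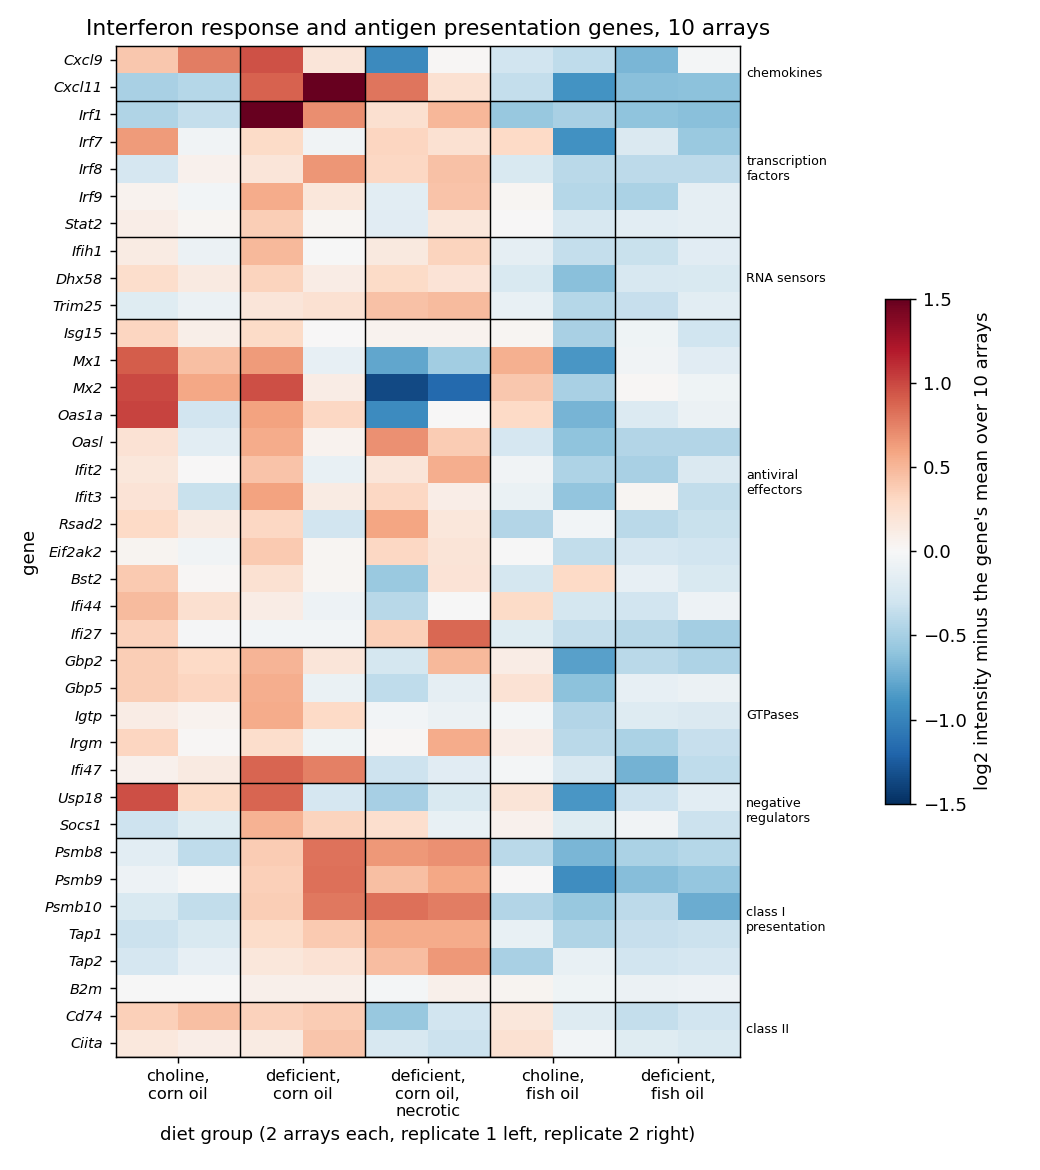
Level of the 37 members (rows, by role) on each of the 10 arrays (columns), as log2 intensity minus the mean of that gene over all arrays; the colour scale ends at 1.5. The 4 fish oil columns are pale or blue for most rows. The class I genes other than B2m, which is pale throughout, are red in the deficient and necrotic corn oil columns. Mx1, Mx2 and Cd74 are blue in the necrotic columns.

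The chemokines Cxcl11 and Cxcl9 draw T and NK cells through the receptor CXCR3. Cxcl11 read 9.22 and 9.27 in the choline-fed corn oil kidneys, 10.58 and 11.20 in the deficient corn oil kidneys and 10.51 and 9.93 in the necrotic kidneys. Under fish oil its levels were 9.34 and 8.80 with choline and 9.08 and 9.09 without. Every deficient or necrotic corn oil array lay above every other array. The fall with fish oil was -1.81 ± 0.26 (SE) on the log2 scale in the deficient pools, 3.5-fold lower (adjusted p = 0.014), and -1.13 ± 0.26 against the necrotic pools (adjusted p = 0.0162). Without choline, corn oil kidneys were higher by 1.65 ± 0.26 (adjusted p = 0.0268), where 1.13% of probe sets passed and 0.893% rose; this difference and the oil difference share the deficient corn oil arrays. Cxcl9 had another profile: it read 8.05 and 8.42, 8.60 and 7.83 and 6.69 and 7.67 in the choline-fed, deficient and necrotic corn oil kidneys, and 6.97 to 7.61 on the 4 fish oil arrays. Its oil differences were -0.93 ± 0.36 with choline and -0.93 ± 0.36 without, and neither passed.

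Irf1, the transcription factor that carries much of the gamma response to its target genes, rose with choline deficiency under corn oil, and its difference under fish oil did not pass. Its levels were 8.42 and 8.52 with choline and corn oil, 10.51 and 9.57 in deficient and 9.12 and 9.38 in necrotic corn oil kidneys. They were 8.31 and 8.39 with choline and fish oil and 8.28 and 8.24 with deficiency and fish oil. The 4 deficient and necrotic corn oil arrays were the highest, and the 4 fish oil arrays the lowest. Fish oil was 3.44-fold lower than corn oil in the deficient pools (-1.78 ± 0.26, adjusted p = 0.0138) and -0.99 ± 0.26 against necrotic (adjusted p = 0.0271). Deficiency raised Irf1 by 1.57 ± 0.26 under corn oil (adjusted p = 0.0296) and differed by -0.09 ± 0.26 under fish oil. The difference between those choline effects was -1.66 (95% interval -2.49 to -0.83) but did not pass over all probe sets (adjusted p = 0.195).

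The other transcription factors moved less. Irf8, a factor of myeloid cells and B cells, read 7.58 and 7.91 with choline and corn oil, 8.02 and 8.50 in deficient and 8.15 and 8.28 in necrotic corn oil kidneys. With fish oil it read 7.60 and 7.43 with choline and 7.45 and 7.45 without. The deficient fish oil pools lay below all 6 corn oil pools, and the fall against the necrotic pools was -0.77 ± 0.18 (adjusted p = 0.0158). Irf7, the amplifier of type I interferon, read 8.94 and 8.24, 8.58 and 8.24 and 8.62 and 8.53 in the choline-fed, deficient and necrotic corn oil kidneys. It read 8.60 and 7.39 with choline and fish oil and 8.08 and 7.74 with deficiency and fish oil. The pools of the choline-fed fish oil group stood 1.21 apart, and the average oil difference, -0.55 ± 0.26, did not pass (adjusted p = 0.39). Irf9 and Stat2, which act together in the type I response, differed by -0.44 ± 0.17 and -0.26 ± 0.12 between the oils and did not pass.

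**Figure D2:**
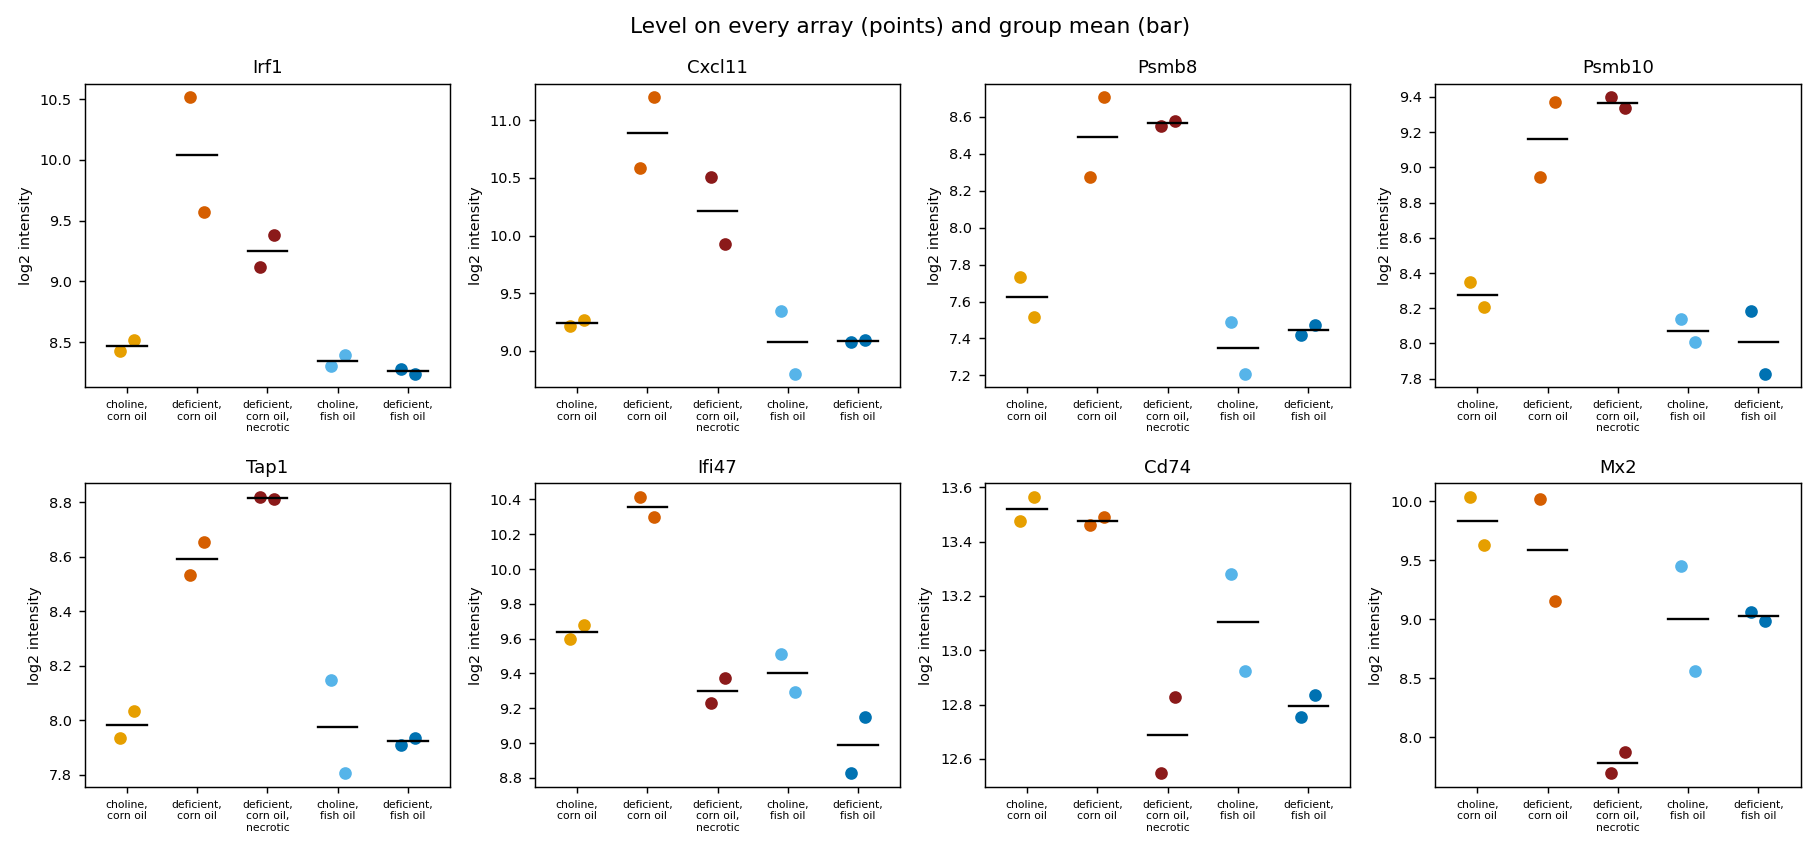
Log2 intensity (vertical axes) of 8 members on every array (points, 2 per diet group on the horizontal axis), with the group mean as a bar. Irf1, Cxcl11, Psmb8, Psmb10 and Tap1 are high in the deficient and necrotic corn oil groups; Ifi47 is high only in the deficient group; Cd74 and Mx2 are lowest in the necrotic group.

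The RNA sensors and their control genes were lower with fish oil at small size. Dhx58 (LGP2), a helicase that tunes RNA sensing, was between 7.06 and 7.28 on the 6 corn oil arrays and between 6.32 and 6.72 on the 4 fish oil arrays, with no overlap. It fell by 0.54 ± 0.11 averaged over choline supply (adjusted p = 0.0417). Trim25, the ubiquitin ligase that activates RIG-I, read 10.71 and 10.80 with choline and corn oil, 11.07 and 11.12 in deficient and 11.33 and 11.36 in necrotic corn oil kidneys. Under fish oil its levels were 10.78 and 10.47 with choline and 10.54 and 10.73 without. Its necrotic arrays were the highest; it was 0.59 ± 0.13 above the choline-fed level (adjusted p = 0.0148) and deficient fish oil was -0.71 ± 0.13 against necrotic (adjusted p = 0.00633). Ifih1 (MDA5) differed by -0.38 ± 0.13 between the oils and did not pass, though its 4 fish oil arrays lay below all corn oil arrays.

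Among the 12 antiviral effectors, 0 passed in either pairwise oil comparison of non-necrotic pools or in their average, although all 12 means were lower with fish oil in each of them (medians -0.44 with choline, -0.45 without and -0.42 averaged). By limma's test 7 of the 12 had an unadjusted p under 0.05 in the average, beside 14.3% of probe sets. Against the necrotic pools 3 fell and Mx2 rose, where 10.5% of probe sets fell and 9.25% rose. Oasl, of the oligoadenylate synthetase-like proteins, read 8.06 and 7.68 with choline and corn oil, 8.40 and 7.89 in deficient and 8.52 and 8.22 in necrotic corn oil kidneys. It read 7.59 and 7.24 with choline and fish oil and 7.40 and 7.40 with deficiency and fish oil. Its 4 fish oil arrays were the lowest of the 10, and the difference from necrotic was -0.97 ± 0.21 (adjusted p = 0.013). Ifi27, an interferon-induced mitochondrial protein, read 8.85 and 8.49 and 8.47 and 8.46 in choline-fed and deficient corn oil kidneys and 8.86 and 9.37 in necrotic ones. With fish oil it read 8.32 and 8.14 with choline and 8.09 and 7.99 without. Fish oil arrays again lay below all corn oil arrays, and the fall against necrotic was -1.07 ± 0.18 (adjusted p = 0.00401). Rsad2 (viperin) read 8.79 and 8.62, 8.80 and 8.21 and 9.09 and 8.67 in the choline-fed, deficient and necrotic corn oil kidneys. It read 8.06 and 8.45 with choline and fish oil and 8.10 and 8.17 with deficiency and fish oil. Its fall against necrotic, -0.74 ± 0.23, passed narrowly (adjusted p = 0.0498), and its deficient corn oil arrays overlapped the fish oil arrays.

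Mx2 was the member that stood lowest in necrotic kidney. This dynamin-like GTPase read 10.03 and 9.63 with choline and corn oil and 10.01 and 9.16 in deficient corn oil kidneys, but 7.70 and 7.88 in the necrotic ones. Under fish oil its levels were 9.45 and 8.56 with choline and 9.06 and 8.98 without. The necrotic arrays lay below all 8 others. In necrotic kidney Mx2 fell by 2.05 ± 0.33 against choline-fed corn oil (adjusted p = 0.00309, 4.13-fold lower), where 10.7% of probe sets fell, and fell by 1.80 ± 0.33 against deficient corn oil (adjusted p = 0.0122), where 9.79% of probe sets passed, 5.08% falling and 4.71% rising. The deficient fish oil kidneys were 1.24 ± 0.33 above the necrotic ones (adjusted p = 0.0306), while -0.56 ± 0.33 below the deficient corn oil ones, which did not pass. Other type I targets were split. Mx1, Usp18 (a protease that removes ISG15), Oas1a, Ifi44 and Bst2 had their lowest group mean in necrotic kidney. Oasl, Ifit2, Rsad2, Eif2ak2 and Ifi27 had their highest there (8.37, 8.52, 8.88, 8.84 and 9.12). Fish oil means were nearly as low as the necrotic ones for Usp18 (5.96 with choline), Ifi44 and Bst2 (7.91 and 6.32 without choline). The necrotic means of these genes were 5.94, 7.88 and 6.32. Necrotic minus choline-fed corn oil was -1.33 ± 0.42 for Mx1 and -0.99 ± 0.43 for Usp18. It was -0.83 ± 0.47 for Oas1a and -0.56 ± 0.21 for Ifi44. By limma's test none of these 4 differences passed (adjusted p from 0.0551 to 0.264). Proximal tubule markers fell in the same comparison, 5 of 6 passing with a median of -2.49, as did 5 of 5 other kidney markers; their part in these differences was not tested.

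Of the 5 inducible GTPases, which attack the vacuoles of intracellular pathogens, Ifi47 had the smallest adjusted p of the set in both the deficient and the average oil comparison. It read 9.60 and 9.68 with choline and corn oil, 10.41 and 10.30 in deficient and 9.23 and 9.37 in necrotic corn oil kidneys. With fish oil it read 9.51 and 9.29 with choline and 8.83 and 9.15 without. The deficient corn oil arrays were the highest, and all 4 fish oil arrays lay below the 4 non-necrotic corn oil arrays. Ifi47 fell by 1.37 ± 0.14 with fish oil in the deficient pools (adjusted p = 0.0036, 2.58-fold lower) and fell by 0.80 ± 0.10 averaged over choline supply (adjusted p = 0.00859). It also fell by 1.05 ± 0.14 from the deficient to the necrotic corn oil kidneys (adjusted p = 0.0034). Gbp2, Gbp5, Igtp and Irgm had average oil differences between -0.73 and -0.41 and did not pass, with adjusted p between 0.0715 and 0.367. Socs1, which shuts off Janus kinases, was 0.19 ± 0.17 with choline and -0.61 ± 0.17 without, and did not pass in either.

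Class I presentation held 5 genes that passed in at least 1 oil comparison, and B2m, which passed in none. The 3 subunits Psmb8, Psmb9 and Psmb10 replace the catalytic subunits of the standard proteasome to form the immunoproteasome. Psmb8 read 7.73 and 7.51 with choline and corn oil, 8.27 and 8.70 in deficient and 8.55 and 8.58 in necrotic corn oil kidneys. Under fish oil its levels were 7.49 and 7.21 with choline and 7.42 and 7.47 without. Psmb10 followed it: 8.35 and 8.21 with choline and corn oil, 8.95 and 9.37 in deficient, 9.40 and 9.34 in necrotic, 8.14 and 8.01 with choline and fish oil, and 8.19 and 7.83 with deficiency and fish oil. In both genes the deficient and necrotic corn oil arrays lay above all others and the fish oil arrays below all corn oil arrays. With fish oil Psmb8 fell by 1.04 ± 0.17 in the deficient pools (adjusted p = 0.0208) and Psmb10 fell by 1.15 ± 0.17 (adjusted p = 0.016). Against necrotic the falls were -1.12 ± 0.17 (adjusted p = 0.00195) and -1.36 ± 0.17 (adjusted p = 0.000876). Psmb9 read 9.02 and 9.09, 9.45 and 9.92 and 9.55 and 9.68 in choline-fed, deficient and necrotic corn oil kidneys. It read 9.10 and 8.16 with choline and fish oil, pools that stood 0.94 apart, and 8.46 and 8.51 with deficiency and fish oil. Its fall against necrotic passed (-1.13 ± 0.27, adjusted p = 0.0208), and the larger difference of -1.20 ± 0.27 in the deficient pools did not (adjusted p = 0.0799). Of 23 constitutive proteasome genes 0 passed in any of the 10 comparisons by limma's test, with 3 at an unadjusted p under 0.05 against necrotic (30.7% of probe sets) and 0 in the other 3 oil comparisons; the median of the average oil difference was 0.03.

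Tap1 and Tap2 form the transporter that carries peptides into the endoplasmic reticulum. Tap1 read 7.93 and 8.03 with choline and corn oil, 8.53 and 8.65 in deficient and 8.82 and 8.81 in necrotic corn oil kidneys. With fish oil it read 8.15 and 7.80 with choline and 7.91 and 7.94 without. The choline-fed corn oil and fish oil arrays overlapped, and deficient and necrotic corn oil arrays stood above them. Tap1 fell by 0.67 ± 0.13 with fish oil in the deficient pools (adjusted p = 0.0476) and -0.89 ± 0.13 against necrotic (adjusted p = 0.00196). Its average oil difference of -0.34 ± 0.09 did not pass, and with choline the difference was -0.01 (95% interval -0.31 to 0.30). Tap2 read 7.29 and 7.42, 7.71 and 7.75 and 8.0 and 8.19 in choline-fed, deficient and necrotic corn oil kidneys. It read 7.06 and 7.43 with choline and fish oil and 7.25 and 7.28 with deficiency and fish oil. Only the fall against necrotic passed among its oil differences (-0.83 ± 0.14, adjusted p = 0.00423). B2m, the light chain of class I molecules, stayed between 13.64 and 13.81 on all 10 arrays. Its average oil difference was -0.08 (95% interval -0.25 to 0.08).

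In necrotic against choline-fed corn oil kidneys 6 members rose, Psmb10, Cxcl11, Psmb8, Tap1, Tap2 and Trim25, and Mx2 and Cd74 fell, beside 20.9% of probe sets passing, 10.2% rising and 10.7% falling. The rises were 1.09 ± 0.17 for Psmb10 (adjusted p = 0.00274), 0.94 ± 0.17 for Psmb8 (adjusted p = 0.00475), 0.83 ± 0.13 for Tap1 (adjusted p = 0.00292) and 0.74 ± 0.14 for Tap2 (adjusted p = 0.00742). Without the necrotic label the same 4 genes differed from choline-fed corn oil by 0.88 ± 0.17, 0.87 ± 0.17, 0.61 ± 0.13 and 0.38 ± 0.14 and did not pass, both comparisons using the same choline-fed arrays. The necrotic and deficient corn oil kidneys did not differ beyond the test in any class I member, with differences from -0.07 for Psmb9 to 0.37 for Tap2. Under fish oil, deficiency against choline passed in 0 of 37 members and 0 of 29214 probe sets by limma's test (1 member and 3.55% of probe sets at an unadjusted p under 0.05). There the 95% interval was -0.28 to 0.47 for Psmb8, -0.46 to 0.33 for Psmb10 and -0.36 to 0.25 for Tap1.

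Cd74, the chaperone of class II molecules, was high with non-necrotic corn oil and lower both with fish oil and in the necrotic pools. It read 13.47 and 13.56 with choline and corn oil, 13.46 and 13.49 in deficient and 12.55 and 12.83 in necrotic corn oil kidneys. Under fish oil its levels were 13.28 and 12.93 with choline and 12.76 and 12.83 without. All 4 fish oil and both necrotic arrays lay below the 4 non-necrotic corn oil arrays. It fell by 0.55 ± 0.11 averaged over choline supply (adjusted p = 0.0366), fell by 0.83 ± 0.15 in necrotic against choline-fed corn oil (adjusted p = 0.00503) and fell by 0.79 ± 0.15 in necrotic against deficient corn oil (adjusted p = 0.0136). Ciita, the activator of class II genes, fell only in the last of these (-0.56 ± 0.14, adjusted p = 0.0393). Class II genes outside the set differed from each other in the necrotic pools. RT1-Da, a class II alpha chain, read 11.21 and 11.23, 11.30 and 11.45 and 9.65 and 10.14 in choline-fed, deficient and necrotic corn oil kidneys, and 10.90 and 10.40 and 10.20 and 10.31 with fish oil with and without choline. It fell by 0.85 ± 0.14 averaged between the oils (adjusted p = 0.0215) and fell by 1.33 ± 0.20 in necrotic kidney (adjusted p = 0.00223). The peptide editor genes RT1-DMa and RT1-DMb fell with fish oil too (-0.97 ± 0.19 and -0.94 ± 0.16) but were 0.59 ± 0.27 and -0.05 ± 0.22 in necrotic against choline-fed corn oil, neither passing. Cross-hybridisation between the close copies of the RT1, Mx and Oas families was not tested.

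**Figure D3:**
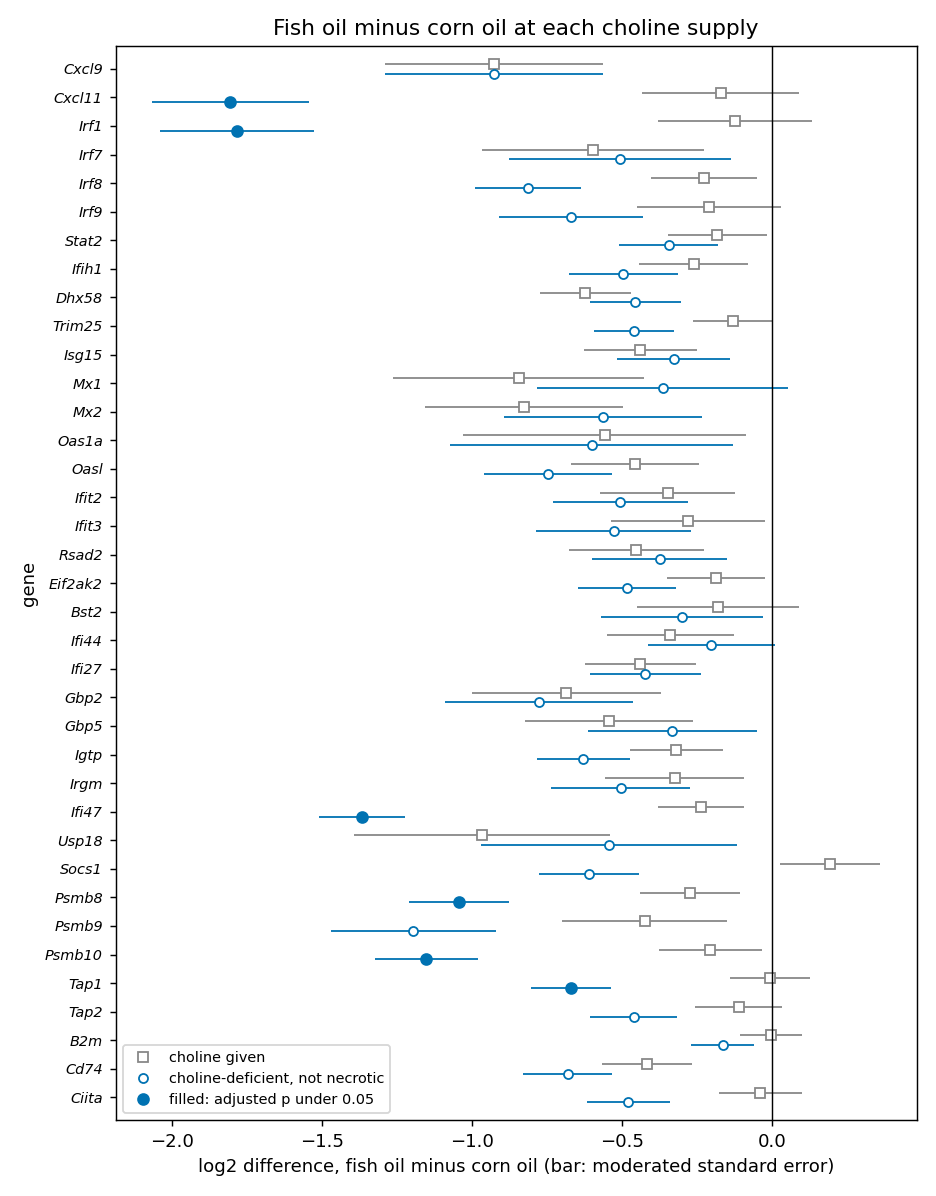
Log2 difference of fish oil minus corn oil for each of the 37 members (rows), with choline (grey squares) and in deficient pools not labelled necrotic (blue circles); bars are moderated standard errors and filled symbols passed at an adjusted p under 0.05. All deficient values lie below 0, and of the choline-fed values 36 of 37 do; the 6 filled symbols are Cxcl11, Irf1, Ifi47, Psmb8, Psmb10 and Tap1.

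The difference between the oil effects with and without choline was tested directly. For non-necrotic pools 0 of 37 members passed by limma's test (8 were lower at an unadjusted p under 0.05, all in the sense of a larger oil difference under deficiency), beside 0.103% of probe sets (0.0958% lower, 0.00685% higher, and 9.9% at an unadjusted p under 0.05). The largest were -1.66 ± 0.36 for Irf1, -1.63 ± 0.37 for Cxcl11 and -1.13 ± 0.20 for Ifi47, with adjusted p = 0.195, 0.212 and 0.113. A larger fall of these genes with deficiency is thus not shown at this size. With the necrotic pools in place of the deficient ones, Psmb10 (-1.16 ± 0.24, adjusted p = 0.0222) and Tap1 (-0.89 ± 0.19, adjusted p = 0.023) were lower and Mx2 (2.06 ± 0.47, adjusted p = 0.0299) higher, beside 8.72% of probe sets passing, 3.82% lower and 4.9% higher. All 3 calls ended when either necrotic pool, either choline-fed corn oil pool or replicate 2 of the deficient fish oil pools was left out, with differences over all alternatives from -1.33 to -0.98 for Psmb10, from -1.06 to -0.72 for Tap1 and from 1.62 to 2.51 for Mx2. Leaving out other arrays ended some of them too: the Mx2 and Tap1 calls without replicate 1 of the deficient fish oil pools, the Psmb10 and Tap1 calls without replicate 1 of the choline-fed fish oil pools, and the Mx2 and Psmb10 calls without replicate 2 of the latter.

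The pairwise oil calls in deficient pools rested on few arrays. Without replicate 2 of the deficient fish oil pools only Ifi47 of the 6 passed; without replicate 1 of them Ifi47 and Psmb10 did; and without replicate 2 of the deficient corn oil pools Irf1 and Ifi47 did, the whole comparison dropping from 507 probe sets called to 87, 137 and 239. Tap1 lost its call in this comparison without any 1 array other than the choline-fed fish oil ones. The differences themselves ran from -2.11 to -1.50 for Cxcl11, from -2.26 to -1.31 for Irf1 and from -1.53 to -1.20 for Ifi47. They ran from -1.37 to -0.94 for Psmb10, from -1.26 to -0.83 for Psmb8 and from -0.73 to -0.61 for Tap1. For each of these genes both deficient fish oil arrays lay below both deficient corn oil arrays. Leaving out an array could therefore not turn a sign. With only the 4 arrays compared, 0 of the 6 passed, in a fit that called 25 probe sets. In the average over choline supply Ifi47 alone passed without either deficient fish oil array, either choline-fed corn oil array or replicate 2 of the choline-fed fish oil pools, and Dhx58 passed only when replicate 1 of the latter was the array left out. Against necrotic, Psmb8, Psmb10, Tap1, Tap2 and Ifi27 passed without any 1 array; these were the only calls without replicate 1 of the deficient fish oil pools, and Trim25 joined them without replicate 2. Without either necrotic array 8 of the 13 passed. The difference of Mx2 stayed between 1.15 and 1.35, and its call ended without any 1 array of the necrotic or deficient fish oil pools. In necrotic against choline-fed corn oil, Psmb8, Psmb10, Tap1, Mx2 and Cd74 passed without any 1 array, Cxcl11 lost its call without necrotic replicate 1 or either choline-fed pool, Trim25 without any pool of the 2 groups, and Tap2 without choline-fed replicate 1. The rises of Cxcl11 and Irf1 with deficiency under corn oil ended without either choline-fed corn oil pool or either deficient fish oil pool, at differences from 1.34 to 1.95 and from 1.10 to 2.04; that of Cxcl11 also ended without replicate 2 of the deficient corn oil pools, and that of Irf1 without either choline-fed fish oil pool. In necrotic against deficient corn oil, Ifi47 passed without any 1 array, while Mx2 and Cd74 lost their calls without necrotic replicate 1 or deficient replicate 1, and Mx2 also without necrotic replicate 2; Ciita passed only without a choline-fed fish oil pool.

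In some groups the members differed between the 2 pools in a shared direction. In choline-fed fish oil kidneys replicate 1 was above replicate 2 in 33 of 37 members, beside 52.8% of all probe sets. The median gap was 0.355, against 0.017 over all probe sets. Mx1 read 7.64 and 6.24 there, Usp18 6.50 and 5.43, and Gbp2 7.94 and 7.01. Replicate 1 was also the higher in 26 members in choline-fed and 27 in deficient corn oil kidneys, beside 49.9% and 41.6% of all probe sets. The necrotic and deficient fish oil groups had 13 and 14 members with replicate 1 higher, beside 57.4% and 50.1% of all probe sets. In deficient fish oil kidneys the median gap of the members was -0.013. Their median absolute gap there was 0.079, against 0.129 over all probe sets. The median oil difference with choline was -0.32 with both fish oil pools, -0.13 without replicate 2 and -0.53 without replicate 1. With choline, the 95% interval of the oil difference was -1.80 to 0.11 for Mx1 and -1.94 to 0.01 for Usp18, and neither passed.

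Genes outside the set were counted from lists of the same pathways. Of 46 other interferon-induced genes 8 fell and 0 rose with fish oil in deficient pools, and 8 fell and 0 rose in the average. Among all probe sets 1.39% fell and 0.346% rose in deficient pools, and 1.69% fell and 0.555% rose in the average. Cxcl10, the chemokine next to Cxcl9 and Cxcl11, read 9.76 and 9.78 with choline and corn oil, 11.20 and 10.94 in deficient and 9.19 and 9.53 in necrotic corn oil kidneys. With fish oil it read 9.33 and 9.16 with choline and 9.34 and 9.12 without, and it fell by 1.84 ± 0.16 in the deficient pools (adjusted p = 0.00158). That call held without any 1 array, as did the average fall of Lgals3bp, a secreted galectin ligand (-1.06 ± 0.11, adjusted p = 0.0029). The other falls in deficient pools were -1.32 for Tnfsf10, -1.16 for Dtx3l, -1.13 for Lgals3bp, -1.10 for Phf11, -1.08 for Parp9, -0.78 for Slfn2 and -0.64 for Ifitm3. Without replicate 1 of the deficient fish oil pools, Cxcl10 was the only call left of the 8, and in the average 2 of the 8 were left without either deficient fish oil or either choline-fed corn oil array. Against necrotic 19 of the 46 fell and 1 rose, beside 10.5% of probe sets falling and 9.25% rising. Apobec1 (-2.19), Slfn2 (-1.69) and Ifi27l2b (-1.52) had the largest falls and Trim14 (1.38) the rise.

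Of 41 other antigen presentation genes 5 fell with fish oil in deficient pools, RT1-Db1 (-1.26), RT1-DMb (-1.23), RT1-Da (-1.12), RT1-Bb (-1.03) and the proteasome activator Psme2 (-0.71), and 0 rose. In the average 6 fell, RT1-DMa, RT1-DMb, RT1-Da, RT1-Db1, RT1-Ba (-0.74) and the peptide trimmer Erap1 (-0.50). All of these calls ended without replicate 1 or replicate 2 of the deficient fish oil pools. Among all probe sets 1.39% fell in the deficient comparison and 1.69% in the average. Against necrotic 16 fell and 0 rose, beside 10.5% of probe sets falling and 9.25% rising. Among the falls were the cathepsin Ctss (-1.40), Tapbpl (-0.97), the class I gene RT1-CE5 (-0.91) and the costimulator Cd80 (-0.91). In necrotic against choline-fed corn oil 8 of the 41 rose, RT1-CE5 by 1.00 and Tapbpl by 0.85 among them. The 4 that fell were the class II chains RT1-Ba, RT1-Bb, RT1-Da and RT1-Db1. Among all probe sets 10.2% rose and 10.7% fell there, so the share of the 41 falling was near the background.

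Upstream, 1 of 24 interferon signalling genes passed in an oil comparison of non-necrotic pools, the average, where 2.25% of probe sets passed. Il10rb fell by 0.41 ± 0.08 in the average (adjusted p = 0.0325), a call that ended without any 1 fish oil or choline-fed corn oil array, and 0 passed in the pairwise comparisons of non-necrotic pools (8 of 24 at an unadjusted p under 0.05 in the deficient ones, beside 12.6% of probe sets). The interferons Ifng, Ifnb1, Ifna4 and Ifnk passed in none of the 10 comparisons. Ifng read between 4.49 and 5.20 over all arrays and Ifnb1 between 5.25 and 5.74. All of these interferons read below the array medians (7.28 to 7.43) on every array, so a change in them may have been missed. Against necrotic kidneys 7 of the 24 were lower, Tlr7 (-1.89), the interferon gamma receptor chains Ifngr1 (-0.92) and Ifngr2 (-0.84), Jak2, Il10rb, Traf3 and Ifnar1. Mavs (0.80) and Irf4 were higher. Among all probe sets 10.5% fell and 9.25% rose in that comparison.

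Leukocyte markers moved with several of these results. Of 12 macrophage and monocyte markers 9 fell with fish oil in deficient pools (median -1.11) and 8 in the average; with choline 0 passed by limma's test (median -0.34, 4 at an unadjusted p under 0.05, beside 12.4% of probe sets). Among all probe sets 1.39% fell in the deficient comparison, 1.69% in the average and 0.0993% with choline. Without either deficient fish oil array 1 of the 9 marker calls was left. In the average 1 of the 8 was left without replicate 1 of these pools or either choline-fed corn oil array. The mean level of the 12 markers was 8.17 and 8.28 with choline and corn oil, 8.84 and 9.32 in deficient and 10.11 and 10.18 in necrotic corn oil kidneys. It was 7.91 and 8.02 with choline and fish oil, and 7.94 and 8.03 with deficiency and fish oil. Cd14 read 9.41 and 9.67 in deficient corn oil and 7.84 and 7.69 in deficient fish oil kidneys, a fall of -1.77 ± 0.15 (adjusted p = 0.00158). The marker mean was higher in replicate 2 than in replicate 1 of the deficient corn oil pools. Of the 37 members 27 were higher in replicate 1 instead, Irf1, Mx2 and Usp18 among them, beside 41.6% of all probe sets. Cxcl11, Psmb8, Psmb9, Psmb10 and Irf8 were, like the markers, higher in replicate 2. Cd74 and the class II chains RT1-Bb, RT1-Da and RT1-Db1 had their lowest group mean in the necrotic pools, while the mean of the macrophage markers was highest there; of the 12 markers, Adgre1 was highest in deficient corn oil kidneys instead. Of 15 T and NK cell markers 0 passed in the deficient oil comparison (median -0.21). By limma's test 3 had an unadjusted p under 0.05 there, beside 12.6% of probe sets. Cd3g fell in the average (-0.53 ± 0.11). The mean level of the 15 was 6.54 and 6.68 in deficient corn oil and between 6.32 and 6.39 on the other 8 arrays. Apart from Cd4, Nkg7, Gzmb and Lck, they read below the array medians (7.28 to 7.43) on every array. A change in them may thus have been missed. Of 5 B cell markers Fcrla fell in the average (-0.54 ± 0.11), and of 6 dendritic cell markers Cd83 fell in the deficient pools (-0.91 ± 0.12) and in the average (-0.57 ± 0.08). The calls of Cd3g, Fcrla and Cd83 each ended without either deficient fish oil array. Of 7 neutrophil markers 2 fell in the deficient pools and 2 in the average. With choline only Mmp9 fell (-2.08 ± 0.24, adjusted p = 0.0196), a call that ended without any 1 of the 4 arrays compared. There the means of S100a8, Il1r2 and Mmp8 were higher with fish oil, and those of S100a9, Csf3r and Cxcr2 lower. Unlike the other markers, Mmp9 read as high with choline and corn oil (mean 9.79) as in necrotic kidney (9.75). The mean level of the 7 markers was between 7.47 and 8.06 on the necrotic arrays and at most 6.58 on the others. Of 7 endothelial markers 0 passed between the oils in non-necrotic pools by limma's test (2 at an unadjusted p under 0.05 in the deficient pools, beside 12.6% of probe sets). The part of these cells in the oil differences and in those of the necrotic pools was not tested.

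**Figure D4:**
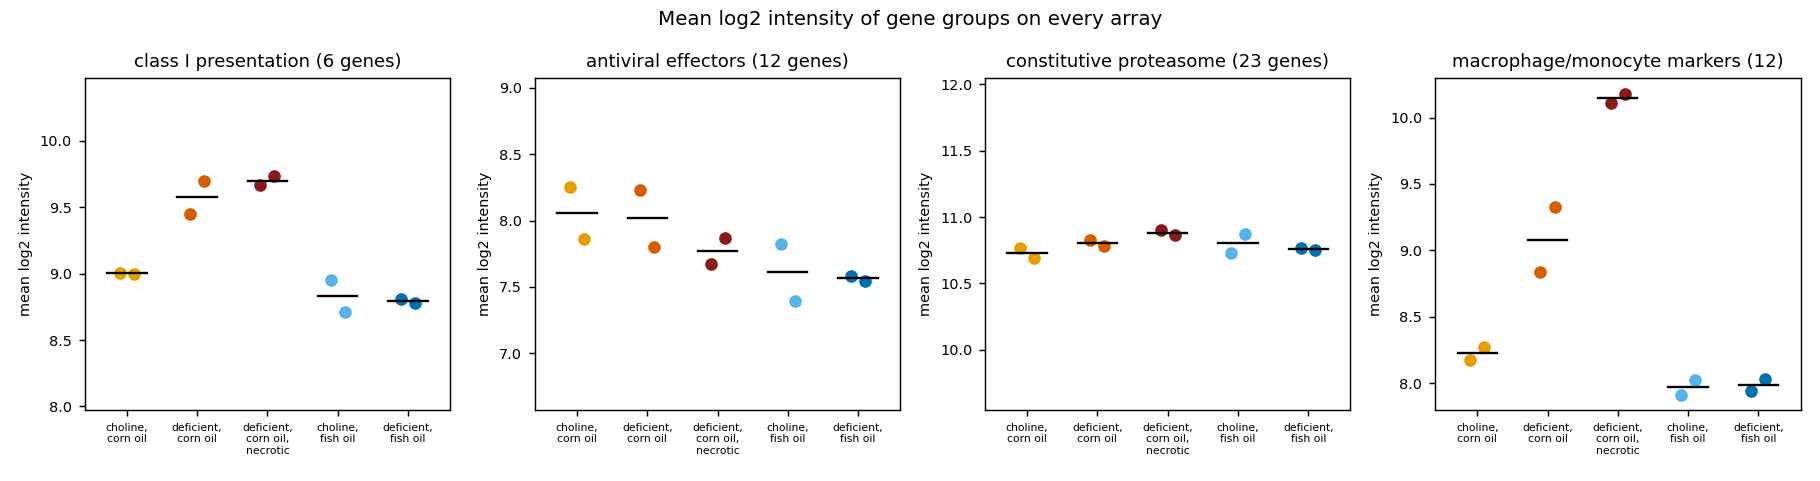
Mean log2 intensity of 4 gene groups on every array (points) with the group mean (bar), each vertical axis spanning 2.5 log2 units. Class I genes and macrophage and monocyte markers are highest in deficient and necrotic corn oil kidneys, antiviral effectors are not, and the constitutive proteasome is nearly level.

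Members were also grouped by the motif in their promoter window, as a description with no test. The 6 with only a GAS (Cxcl9, Cxcl11, Irf1, Irf8, Irf9 and Ifi47) had a median difference of -1.15 with fish oil in deficient pools and 0.62 with deficiency under corn oil. The 13 with only an ISRE core had medians of -0.48 and 0.09, the 6 with both -0.61 and 0.22, and the 6 with neither -0.57 and 0.21. With choline the median oil differences of those 4 groups lay between -0.42 and -0.22, that of the GAS group being the smallest. Over all 10 comparisons 17 of the 37 members passed at least once, against 34.1% of the 14506 named genes and 25.9% of all probe sets, and 20 never did, among them Irf7, Irf9, Stat2, Isg15, Mx1, Oas1a, Gbp2, Usp18 and B2m.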

How the data were processed

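Kidney RNA was measured on 10 whole-transcript arrays, 2 per group. RMA had been run by the authors, per the submitters' processing notes, and gave the deposited log2 signal of each probe set; which software and which probe set definition were used is not given in the sources used here. No further normalization was applied. Of 29214 probe sets, 15310 carried 1 gene symbol, 323 several, and 13581 are unnamed here. Groups came from the sample labels. The 5 groups were fitted together in limma 3.58.1 (R 4.3.3; lmFit and eBayes, 5 residual and 3.59 prior degrees of freedom), 10 comparisons were tested, 2 of them interactions, and p-values were adjusted by Benjamini-Hochberg over all probe sets, with a threshold of 0.05. The script was tested on simulated data. Values on every array are given for members that passed in an oil comparison, up to 15 by size, and for Cd74, B2m, Tap1, Psmb8, Irf1 and Irf7; called genes of related lists are named up to 8 per list. Members and lists were chosen with earlier results of these data known. Figures and promoter searches used Python 3.11.15 with matplotlib 3.10.9, pandas 2.3.3 and numpy 2.4.6. Alternatives were median centring, cyclic loess, a filter at the 25th percentile, a trend and robust prior, a replicate block, only the compared groups, 1 value per gene, and each array left out. No depth applies to arrays; their number limits the precision.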

Additional observations from a re-analysis of the deposited data

Results flagged for a closer look

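The difference between necrotic and choline-fed corn oil kidneys was set against that between deficient and choline-fed fish oil kidneys, by the interaction term of the limma fit, and passed in 3 members, beside 8.72% of all probe sets. With the deficient pools not labelled necrotic in their place, the interaction passed in 0 of 37 members (8 at an unadjusted p under 0.05, beside 9.9% of probe sets). All 3 calls ended without either necrotic pool, either choline-fed corn oil pool or replicate 2 of the deficient fish oil pools. For Mx2 the difference was 2.06 higher on the log2 scale under fish oil than under corn oil (adjusted p = 0.0299); its lowest levels were those of the necrotic kidneys. For Psmb10 it was -1.16 (adjusted p = 0.0222) and for Tap1 -0.89 (adjusted p = 0.023); both rose in the necrotic against the choline-fed corn oil kidneys, and neither passed between the choline supplies under fish oil.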

How the results depend on the processing

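Counts of members called are given here against the values of the report, with the probe sets called over the whole array beside them. For 1 value per gene the count over all features is not given. In deficient fish oil against deficient corn oil (6, beside 507 probe sets), 0 members passed with only the groups compared (25). With 1 value per gene, where fewer features were tested, 10 passed. In the average oil difference (7, beside 656 probe sets), 4 passed after median centring (590) and 11 with 1 value per gene. In deficient against choline-fed corn oil (2, beside 330 probe sets), 4 passed after median centring (307). With the filter on low probe sets 5 passed (464), and with the trend and robust prior 5 (540). With only the groups compared 0 passed (82), and with 1 value per gene 7 did. In necrotic against deficient corn oil (4, beside 2860 probe sets), 2 passed with only the groups compared (654) and 7 with 1 value per gene. The interaction without necrotic pools (0) gave 1 with 1 value per gene. The interaction with necrotic pools (3, beside 2548 probe sets) gave 5 with the filter (3186). It also gave 5 with only the groups compared (2945) and 5 with 1 value per gene. The cause of the changes other than those with fewer features or arrays was not tested. With each array left out in turn, the counts ran from 0 to 0 in choline-fed fish against corn oil, 1 to 7 in the deficient pools, 5 to 16 against necrotic, 1 to 6 in the average, 5 to 11 in necrotic against choline-fed corn oil, 0 to 4 in deficient against choline-fed corn oil, 1 to 4 in necrotic against deficient, 0 to 0 under fish oil, 0 to 1 and 0 to 5 in the interactions. The number of probe sets called over the whole array changed with the array left out as well. No called difference of a member that was recomputed changed sign under any alternative run. Where the compared arrays did not overlap, leaving out an array could not have turned the sign.

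Replicate numbers are shared by the groups. Over all probe sets, deviations of same-numbered arrays correlated between -0.173 and 0.136 over the 10 pairs of groups, above 0.1 in 3. Because they cover all probe sets, these correlations cannot decide whether the members share a replicate effect. With the replicate block 5 members passed in the deficient oil comparison, 5 in the average, 14 against necrotic and 1 in deficient against choline-fed corn oil. Over the whole array 427, 584, 5503 and 255 probe sets passed there, against 507, 656, 5763 and 330 without the block.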
